A study of Mus musculus with 12 samples.

Results

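Glycolysis and the response to low oxygen were followed through 32 genes, 17 of glucose uptake, glycolysis and lactate export and 15 of the hypoxia response. They were picked by name, with earlier results of these data known. The table held 55413 genes, of which 15705 had enough counts to be tested. All 32 had enough counts. Bulk RNA sequencing of 12 mouse libraries gave the values: 4 of total regulatory T cells (Treg, Foxp3-dependent CD4 T cells that hold other immune cells in check) from lymph nodes of mice without a tumor, 3 of peripherally induced Treg (pTreg) from tumors and 5 of thymic Treg (tTreg) from tumors. Each library carries the genotype label Foxp3YFP-cre and TCRbd-/-, where Foxp3YFP-cre places a fluorescent protein and Cre under control of Foxp3 and TCRbd-/- hosts lack T cells of their own but keep B cells and myeloid cells. In the tumor groups, such hosts received tTreg from CD45.1 Foxp3YFP-cre donors and, from CD45.2 donors of the same Foxp3YFP-cre strain, CD8 T cells and Foxp3-negative CD4 T cells, at 1 tTreg to 10 CD4 and 8 CD8 cells. Hepa1-6 cells, a mouse hepatoma line, were injected 3 days after the transfer, and tumor Treg were sorted on day 18 of tumor growth. The lymph node group had no tumor and no listed treatment. Its label also names TCRbd-/-, and whether its Treg came from such hosts after a transfer is not stated. Tissue, tumor and possibly host history differ together between it and the tumor groups and cannot be told apart. The labels do not say whether a library came from 1 animal or from pooled animals, and p-values therefore measure the spread between these libraries, which may be technical.

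Glycolysis splits glucose into pyruvate in the cytosol, starting with uptake by a Slc2a family transporter and trapping by a hexokinase, and cells that send pyruvate to lactate export it through Slc16a3. Low oxygen stabilizes HIF-1, a dimer of Hif1a and Arnt, because the oxygen-dependent prolyl hydroxylases of the Egln family no longer mark Hif1a for destruction by Vhl. HIF-1 binds short DNA motifs with the core ACGTG or GCGTG and raises most glycolytic enzymes, Vegfa, Bnip3, Car9 and its own brake Egln3. In T cells the same enzymes also rise on activation, and Treg have been described as relying less on glycolysis than effector T cells.

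The promoters of the members are the place where such motifs are read, so windows of a few members are printed with the core motifs in capitals. RefSeq promoter windows on GRCm38.p6 were found for 30 of the 32 members, and the 250 bases before each start were searched for ACGTG and GCGTG on both strands, so that CACGT and CACGC are the same motifs read from the other strand and CACGTG holds ACGTG on both. Printed are the 4 members with the highest level per length in tumor libraries among those higher in both tumor groups than in lymph node Treg, for which a window with a motif and free of annotated exons existed, then the pair of members with the highest lymph node level among those lower, and Hk2, chosen after its values were seen.

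Gapdh, chr6:125165774-125166023, minus strand: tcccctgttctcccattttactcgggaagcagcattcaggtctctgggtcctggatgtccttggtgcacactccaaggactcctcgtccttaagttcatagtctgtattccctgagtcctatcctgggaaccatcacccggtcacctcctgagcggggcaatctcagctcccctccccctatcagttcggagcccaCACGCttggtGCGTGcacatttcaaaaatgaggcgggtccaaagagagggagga
Ldha, chr7:46845554-46845803, plus strand: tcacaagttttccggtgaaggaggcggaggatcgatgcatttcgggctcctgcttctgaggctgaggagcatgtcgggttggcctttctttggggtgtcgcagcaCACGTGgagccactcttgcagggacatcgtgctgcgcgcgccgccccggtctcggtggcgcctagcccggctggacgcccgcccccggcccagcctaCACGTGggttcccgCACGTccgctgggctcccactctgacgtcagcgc
Aldoa, chr7:126799255-126799504, minus strand: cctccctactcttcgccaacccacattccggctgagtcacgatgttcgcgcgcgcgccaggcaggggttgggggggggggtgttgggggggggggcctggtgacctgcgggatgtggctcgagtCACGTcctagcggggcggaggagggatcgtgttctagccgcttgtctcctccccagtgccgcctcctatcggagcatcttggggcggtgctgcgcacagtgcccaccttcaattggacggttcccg
Eno1, chr4:150236458-150236707, plus strand: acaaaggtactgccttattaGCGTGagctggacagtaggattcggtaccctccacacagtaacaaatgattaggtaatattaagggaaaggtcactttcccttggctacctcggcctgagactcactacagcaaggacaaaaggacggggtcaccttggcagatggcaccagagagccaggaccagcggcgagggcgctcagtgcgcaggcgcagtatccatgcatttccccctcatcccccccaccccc
Pdk1, chr2:71872974-71873223, plus strand: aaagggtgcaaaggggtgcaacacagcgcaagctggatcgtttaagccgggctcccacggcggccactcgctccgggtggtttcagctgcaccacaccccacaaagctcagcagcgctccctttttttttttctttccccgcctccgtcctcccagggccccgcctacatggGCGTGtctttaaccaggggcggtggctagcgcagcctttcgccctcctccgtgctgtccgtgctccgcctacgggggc
Hk1, chr10:62379909-62380158, minus strand: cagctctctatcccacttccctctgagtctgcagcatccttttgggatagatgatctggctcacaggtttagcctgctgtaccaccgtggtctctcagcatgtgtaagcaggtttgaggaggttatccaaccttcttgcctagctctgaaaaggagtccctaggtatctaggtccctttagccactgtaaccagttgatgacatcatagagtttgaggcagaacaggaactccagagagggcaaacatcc
Hk2, chr6:82774455-82774704, minus strand: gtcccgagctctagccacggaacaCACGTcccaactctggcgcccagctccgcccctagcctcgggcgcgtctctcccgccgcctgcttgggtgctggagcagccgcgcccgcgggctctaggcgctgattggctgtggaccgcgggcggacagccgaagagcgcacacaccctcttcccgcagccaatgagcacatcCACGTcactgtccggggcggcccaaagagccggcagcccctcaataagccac

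The Ldha window held ACGTG 5 times, counting both strands, and the Hk2 window held it 2 times. The Gapdh window held GCGTG 2 times, and those of Eno1 and Pdk1 held it 1 time each. The Hk1 window printed held neither motif, which says only that these letters are not in it, and a second Hk1 window, which overlaps annotated exons, held GCGTG 3 times. A motif was a condition for printing the first 4 windows, so that they hold one is no finding. A gene can have several starts and so several windows, and the 30 members had 47. Windows of 1 gene can overlap, so the same copy of a motif can be counted more than once. At least 1 of the motifs was found in 35 of the 47 member windows (74.5%), in 53.2% of 14349 windows of genes tested and in 38.6% of all 32851 windows. For ACGTG the shares were 48.9, 20.9 and 16.6%, and for GCGTG 46.8, 42.1 and 28.2%.

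Total counts were 14573864 to 17323894 per lymph node library, 17964262 to 18180959 per tumor pTreg library and 18107272 to 18510923 per tumor tTreg library. Levels are given as CPM (counts scaled to a common library total), and group values are mean ± SD over 4, 3 and 5 libraries. The tumor libraries went against their Treg labels in the defining markers. Foxp3, the defining gene of Treg, stood at 441 ± 11 CPM in lymph node Treg but at 20.3 ± 0.58 and 8.74 ± 0.48 in tumor pTreg and tTreg, the 4 CD3 genes summed to 1247 ± 10, 253 ± 6.3 and 21.6 ± 1.7 CPM, and Alb, the albumin gene of hepatocytes, stood at 2169 ± 102 and 3112 ± 122 CPM in the tumor groups. The names tumor pTreg and tumor tTreg stand for the libraries so labelled throughout, and what share of their RNA came from Treg was not tested. The 18 pan-T genes (the CD3 chains, Lck, Cd2 and others) summed to 6653 ± 72 CPM in the lymph node libraries. Their sum was 1390.4 ± 14 CPM in those of tumor pTreg and 135 ± 3.3 in those of tumor tTreg. All 18 were lower in both tumor groups and lower in tumor tTreg than in tumor pTreg, but the list had been chosen after values were seen. The 8 Treg genes (Il2rb, Ikzf2 and others), all lower in both tumor groups, followed the same order, with 4230.4 ± 37, 662 ± 14 and 133 ± 1.9 CPM. The 12 Hepa1-6 or hepatocyte genes (Alb, Trf and others) summed to 7.55 to 9.65 CPM in lymph node Treg, where Apoa2, Fgb and H19 were at 0, against 5388 to 5758 in tumor pTreg and 7959 to 8309 in tumor tTreg. In tumor pTreg most of the sum was Alb, Trf (2095 CPM), Krt18 (641) and Krt8 (484). Apoa1, Apoa2, Apob, Ttr and Ahsg stood at only 0.0553 to 0.221 CPM there and were not tested. The 7 of the 12 that could be tested were all higher in both tumor groups. All 12 macrophage genes (Lyz2, Csf1r and others) were likewise higher, at 35.1 to 42.7, 6249 to 6304 and 6342 to 6688 CPM. Fibroblast genes (8 of 8 higher) summed to 1.71 to 3.71 CPM in lymph node Treg, where Col3a1, Lum and Pdgfra were at 0, against 133 to 153 and 673 to 796 CPM. In bulk RNA fewer cells of a type and less RNA per cell cannot be told apart, and the part of these other cells in the member levels was not tested. The remaining marker lists stood at low levels in tumor libraries. Neutrophil genes summed to 2.21, 41.2 and 40.7 CPM over the 3 groups in the same order, and dendritic cell genes to 11.2, 25.7 and 27.4. In tumor libraries most of the neutrophil sum was Csf3r (31.5 and 29.7 CPM). B cell genes summed to 17.4, 42.6 and 38.3 CPM, but most of the tumor sums was Cd22 (38.7 and 34.9 CPM). Of the 6 B cell genes 1 was called higher and 4 lower in each tumor group. Endothelial genes, nearly all Pecam1 in lymph node Treg, summed to 189.5, 42.7 and 24.7 CPM, while 4 of the 5 tested were called higher and 1 lower in each tumor group. Erythroid genes summed to 0.496, 34.1 and 32.8 CPM. Libraries of a group differed from each other by more than counting noise, and none was left out.

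**Figure D1:**
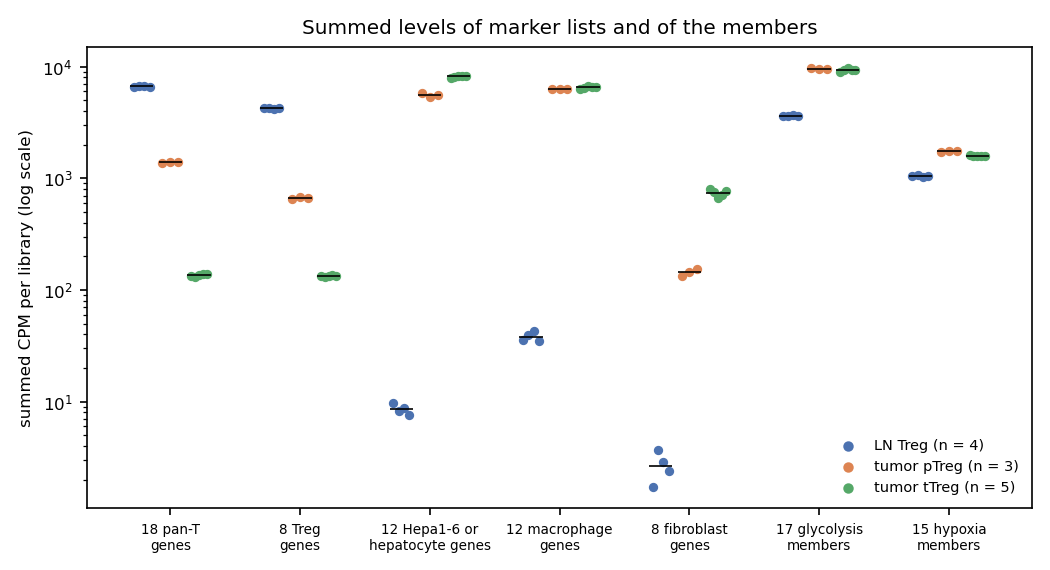
Summed CPM per library on a log axis for 5 marker lists and both groups of members, with 1 point per library and a bar at the group mean. Pan-T and Treg sums fall from lymph node Treg over tumor pTreg to tumor tTreg, the Hepa1-6, macrophage and fibroblast sums are highest in tumor libraries, and the member sums are higher in both tumor groups than in lymph node Treg.

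Most glycolysis and hypoxia genes took a larger share of the RNA in tumor libraries than in lymph node Treg. The 17 glycolysis members summed to 3637 ± 26 CPM in the lymph node libraries, 9591 ± 120.0 in those of tumor pTreg and 9311 ± 226 in those of tumor tTreg. The 15 hypoxia members summed to 1055 ± 14, 1738 ± 16 and 1584 ± 14 CPM. Tests were made with the quasi-likelihood test of edgeR on all genes in 1 fit with TMM scaling, which sets the libraries to a common level over most genes, and a gene was called at a Benjamini-Hochberg adjusted p below 0.05. In tumor pTreg 28 of the 32 members were called higher and 3 lower than in lymph node Treg, where 47.6% of all genes tested were called higher and 39.8% lower. In tumor tTreg 27 were called higher and 4 lower, against 48.1 and 42.3% of all genes. Both counts rest on a scale set by the whole library: per pan-T count, described further down, all 32 members were higher in both tumor groups. On that scale 91.3% of all genes were called higher in tumor pTreg and 96.8% in tumor tTreg. The median log2 fold change of the 32 members was 1.72 in tumor pTreg and 1.75 in tTreg, and over all genes it was 0.12 and 0.10.

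With a fold of at least 2 required as well, 22 members were called higher in each tumor group, against 30% and 31% of all genes tested. No member was called and at least 2-fold lower in tumor pTreg and 1, Slc2a3, was in tumor tTreg, where 17.7% and 22.5% of all genes were. In tumor pTreg Slc2a3 was 1.98-fold lower, just short of that limit, and passed it under several alternatives. Groups did not overlap for 30 members in tumor pTreg and for 31 in tumor tTreg, but the same held for 85.9 and 85.2% of all genes. Both comparisons use the same 4 lymph node libraries. Among the glycolysis members 15 rose and 2 fell in tumor pTreg, and 14 rose and 2 fell in tumor tTreg. Among the hypoxia members 13 rose in each tumor group, and 1 fell in tumor pTreg and 2 in tumor tTreg. Hepa1-6 and macrophage genes moved with both groups of members, at the levels given above.

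**Figure D2:**
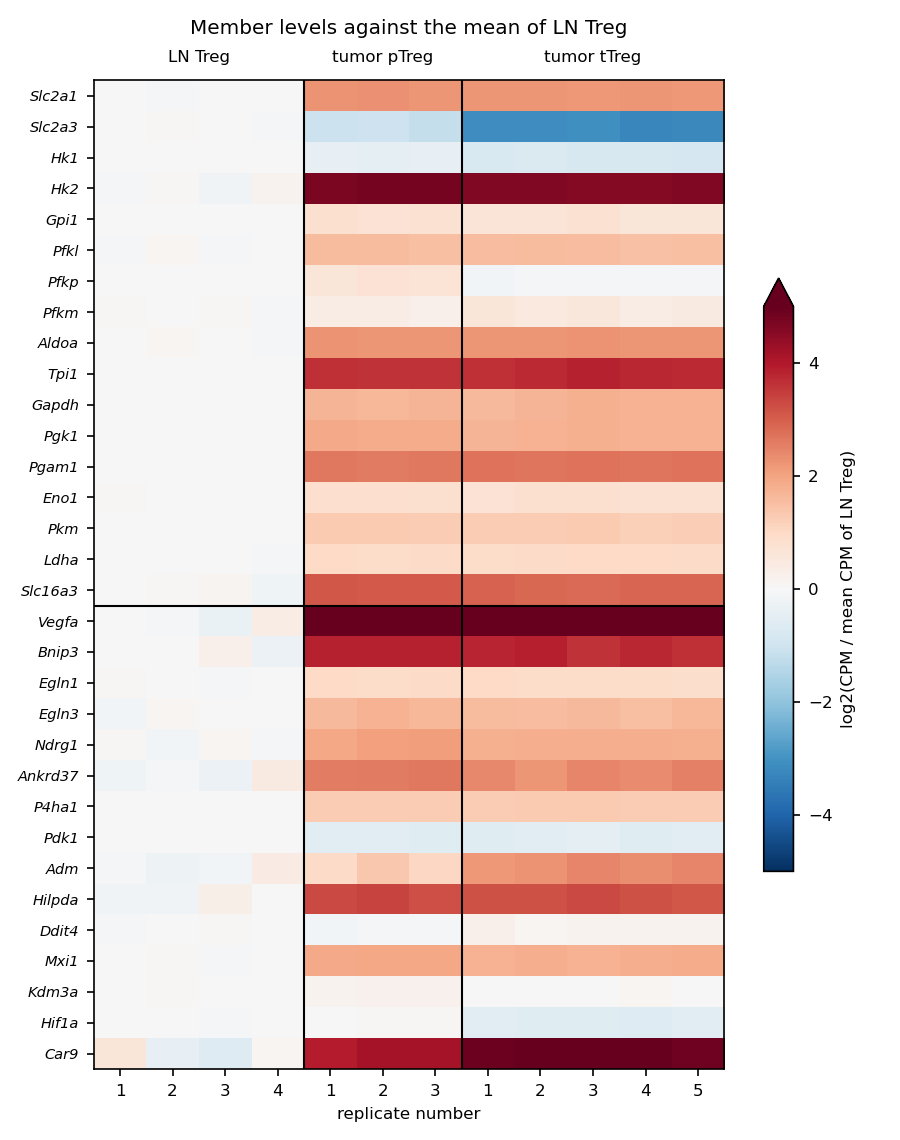
Level of each member in each library as log2 of its CPM over the mean CPM of lymph node Treg, with glycolysis members above the line and hypoxia members below it and colors capped at 5 on either side. Hk2, Tpi1, Vegfa, Bnip3 and Car9 are the deepest red in tumor libraries, Slc2a3 is blue in both tumor groups, and Hif1a is pale in tumor pTreg and blue in tumor tTreg. Per pan-T count all members are higher in tumor libraries, as are 91.3% of all genes in tumor pTreg and 96.8% in tumor tTreg.

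On the scale of the whole library the glucose transporters moved in opposite directions, Slc2a1 up and Slc2a3 down, while per pan-T count both were higher in tumor libraries. Slc2a1, which encodes the broadly expressed glucose transporter GLUT1 (chr4:119108711-119137983, plus strand in GENCODE vM21), stood at 43.9, 42.3, 44.2 and 45.0 CPM in the lymph node libraries, 209.7, 216 and 202 in those of tumor pTreg and 200.5, 201, 199, 201 and 194 in those of tumor tTreg. Every tumor library lay above every lymph node library. The rise was 5.12-fold in tumor pTreg (log2 fold change 2.36 ± 0.034, SE, adjusted p = 2.53e-30) and 4.85-fold in tumor tTreg (2.28 ± 0.032, adjusted p = 4.39e-31). Slc2a3, which encodes GLUT3, a transporter with high glucose affinity found in neurons and lymphocytes (chr6:122727809-122801640, minus strand), stood at 115, 119.9, 113 and 112 CPM in the lymph node libraries, 54.6, 56.4 and 50.7 in those of tumor pTreg and 13.5, 13.5, 13.6, 11.9 and 12.3 in those of tumor tTreg. The groups did not overlap and fell in that order. Slc2a3 was 1.98-fold lower in tumor pTreg (log2 fold change -0.99 ± 0.041) and 8.28-fold lower in tumor tTreg (-3.05 ± 0.044, adjusted p = 8.84e-31), whereas per pan-T count it was higher in both (log2 fold change 1.17 ± 0.051 and 2.47 ± 0.062). Those values lie below the medians over all genes on that scale, 2.27 and 5.62.

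The hexokinases phosphorylate glucose and hold it in the cell, and on the same scale Hk2 rose and Hk1 fell, while per pan-T count both were higher. Hk2, the inducible hexokinase of muscle, tumors and activated cells (chr6:82725025-82774454, minus strand), stood at 8.12, 8.92, 7.62 and 9.70 CPM in the lymph node libraries, 224, 239 and 234 in those of tumor pTreg and 211, 212, 205, 204 and 210.1 in those of tumor tTreg. Every tumor library lay far above every lymph node library. Hk2 rose 29.1-fold in tumor pTreg (log2 fold change 4.86 ± 0.049, adjusted p = 4.15e-34) and 25.9-fold in tumor tTreg (4.70 ± 0.046). Hk1, the constitutive hexokinase (chr10:62268855-62379908, minus strand), stood at 163, 162, 164 and 164 CPM in the lymph node libraries, 124, 118 and 123 in those of tumor pTreg and 96.4, 100.1, 94.3, 92.7 and 91.5 in those of tumor tTreg. The groups did not overlap, with tumor tTreg lowest. Hk1 fell by 0.32 on the log2 scale in tumor pTreg and by 0.68 in tumor tTreg (adjusted p = 3.54e-10 and 4.88e-19). Per pan-T count it was higher by 1.83 ± 0.044 and 4.84 ± 0.044, below the medians of 2.27 and 5.62 over all genes. Reads of Hk1 can be mixed with those of the antisense gene Hk1os where strand was not kept.

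Of the isomerase and the phosphofructokinases, which commit glucose to glycolysis, the liver-type form rose most. Gpi1, glucose phosphate isomerase, was 445 ± 3.6, 755 ± 14 and 698 ± 28 CPM in lymph node Treg and the tumor pTreg and tTreg libraries (log2 fold change 0.87 ± 0.033 and 0.75 ± 0.029). Pfkl, the liver-type subunit, rose from 47.3 ± 2.3 to 139 ± 4.3 and 136 ± 3.9 CPM (3.16 and 3.09-fold). Pfkp, the platelet-type subunit common in immune and tumor cells, stood at 142, 144, 147 and 147 CPM in the lymph node libraries, 222, 242 and 231 in those of tumor pTreg and 133, 135, 136, 136 and 135 in those of tumor tTreg. The tumor pTreg libraries lay above the lymph node libraries and the tumor tTreg libraries slightly below them. In tumor pTreg the rise was 1.72-fold (log2 fold change 0.78 ± 0.031, adjusted p = 1.58e-19). In tumor tTreg the log2 fold change was -0.0054 ± 0.029 (adjusted p = 0.86) and was called lower with library totals as the only scaling (-0.10, adjusted p = 0.0016). Pfkm, the muscle-type subunit, was low, at 16.7 to 18.1 CPM in the lymph node libraries, 20.7 to 22.8 in those of tumor pTreg and 22.8 to 26.8 in those of tumor tTreg, and was called higher in both.

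The enzymes of the lower pathway all rose in both tumor groups, by unequal amounts. Aldoa, the aldolase that splits the 6-carbon sugar, rose from 114 ± 6.0 CPM to 528 ± 10 and 528 ± 9.6 (5.0 and 4.97-fold). Tpi1, triose phosphate isomerase (chr6:124810586-124814296, minus strand), stood at 47.4, 45.5, 46.5 and 46.2 CPM in the lymph node libraries, 590.3, 562 and 568 in those of tumor pTreg and 584, 614, 667, 629 and 618 in those of tumor tTreg. The lymph node libraries lay far below all tumor libraries. This was the largest rise of the lower pathway, 13.3-fold in tumor pTreg (log2 fold change 3.73 ± 0.042, adjusted p = 8.09e-33) and 14.3-fold in tumor tTreg. Gapdh, the dehydrogenase often used as a reference gene, was at 801, 784, 825 and 806 CPM in the lymph node libraries, 2621, 2554 and 2593 in those of tumor pTreg and 2476, 2618, 2782, 2676 and 2664 in those of tumor tTreg. The groups from tumors lay well above lymph node Treg and overlapped each other. Gapdh rose 3.46 and 3.52-fold. Pgk1, phosphoglycerate kinase, which makes the first ATP of the pathway, went from 167 ± 2.4 to 613 ± 8.4 and 555 ± 13 CPM (3.95 and 3.56-fold). Pgam1, the mutase after it, went from 68.0 ± 0.39 to 422 ± 6.4 and 441 ± 4.4 CPM (6.68 and 6.94-fold). Smaller rises were seen for Eno1, enolase (1.92 and 1.82-fold), and Pkm, pyruvate kinase (2.65 and 2.55-fold), whose counts do not separate its isoforms. The largest adjusted p among these 7 genes was 1.49e-21.

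At the end of the pathway both the enzyme that makes lactate and the lactate exporter rose. Ldha, the lactate dehydrogenase subunit favoring pyruvate to lactate, went from 426 ± 9.7 CPM to 827 ± 18 in tumor pTreg and 832 ± 23 in tTreg, 2.09 and 2.09-fold. Slc16a3, the lactate exporter MCT4 (chr11:120948480-120960868, plus strand), stood at 8.24, 8.58, 9.06 and 7.03 CPM in the lymph node libraries, 70.2, 69.6 and 69.3 in those of tumor pTreg and 62.8, 60.3, 58.7, 62.3 and 62.5 in those of tumor tTreg. Tumor tTreg lay between the other groups, with no overlap. Slc16a3 rose 9.11-fold in tumor pTreg (log2 fold change 3.19 ± 0.057, adjusted p = 3.38e-28) and 7.98-fold in tumor tTreg (3.00 ± 0.053, adjusted p = 2.03e-28).

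Levels can be compared between genes on the FPKM scale, which divides by transcript length. Aldoa is left out of the order here. Its symbol stands for 2 annotated genes, its FPKM values alone among the members carry 3 decimals, as a mean of 2 values would, and how its rows were combined is not stated, so its level is uncertain. In lymph node Treg Gapdh led with 767 ± 23 FPKM, followed by Ldha (342 ± 4.7), Pkm (277 ± 5.3) and Eno1 (266 ± 7.3), with the last pair within a few percent of each other. In tumor pTreg the order was Gapdh (2454 ± 60 FPKM), Pkm (685 ± 9.6), Ldha (657 ± 14), Eno1 (469 ± 7.1) and Tpi1 (449 ± 11). In tumor tTreg Gapdh (2502 ± 111 FPKM) was followed by Pkm (663 ± 20) and Ldha (661 ± 21), which did not differ beyond their spread, then Tpi1 (489.9 ± 25) and Eno1 (447 ± 13). Tpi1, at 37.8 ± 0.84 FPKM, stood between Pfkp (40.9 ± 0.89) and Slc2a3 (32.2 ± 1.4) in lymph node Treg, the tenth of the 16 ranked, and was the fifth in tumor pTreg and the fourth in tumor tTreg. The lowest glycolysis member was Hk2 in lymph node Treg (1.65 ± 0.18 FPKM), Pfkm in tumor pTreg (8.62 ± 0.51) and Slc2a3 in tumor tTreg (3.89 ± 0.35).

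**Figure D3:**
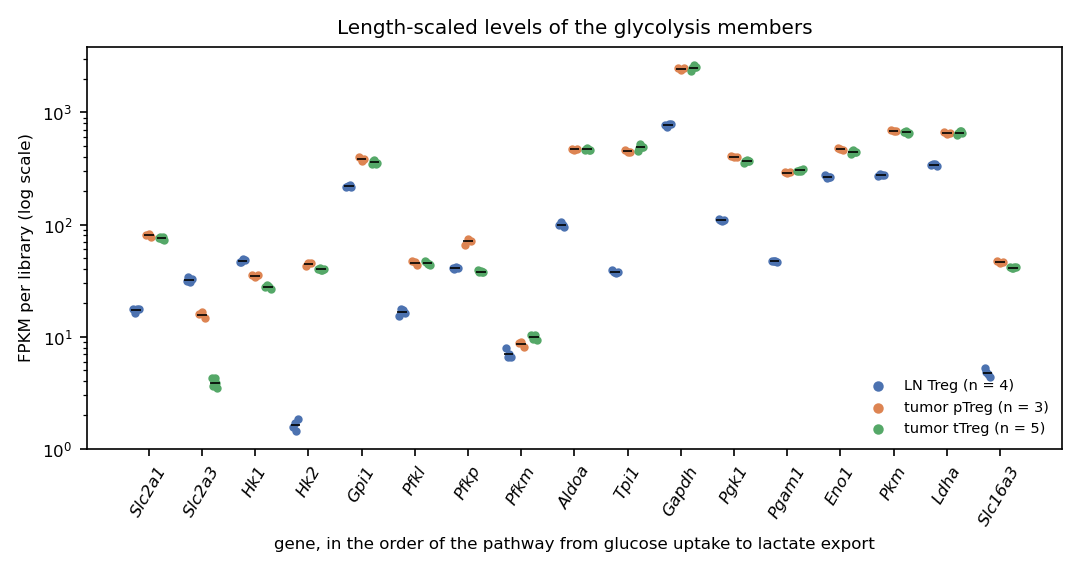
FPKM of each glycolysis member on a log axis, in pathway order from glucose uptake to lactate export, with 1 point per library and a bar at the group mean. Tumor points lie above lymph node points for most genes, Slc2a3 and Hk1 lie below on this scale but not per pan-T count, and for Pfkp only the tumor pTreg points lie above. The level of Aldoa is uncertain because its symbol stands for 2 annotated genes.

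Shares within a gene family use 1 library at a time, so no scaling between libraries enters them. Slc2a1 made up 36.2, 32.2, 36.3 and 35.1% of the summed FPKM of Slc2a1 and Slc2a3 in the lymph node libraries, 83.5, 83.3 and 83.9% in tumor pTreg and 94.7, 95.5, 94.6, 95.3 and 95.5% in tumor tTreg. The groups did not overlap. Hk2 made up 3.33 ± 0.36% of the 3 hexokinase genes in the lymph node libraries, 37.4 ± 0.82% in those of tumor pTreg and 36.3 ± 1.1% in those of tumor tTreg. Hk1 made up 96.4 ± 0.37%, 29.4 ± 1.5% and 25.4 ± 0.35%, and the remainder in tumor libraries was Hk3, a hexokinase of myeloid cells that is not among the members. Among the phosphofructokinases Pfkp held 63.4 ± 0.92% in the lymph node libraries, 56.6 ± 2.3% in those of tumor pTreg and 40.9 ± 0.56% in those of tumor tTreg, and Pfkl held 25.8 ± 1.6%, 36.4 ± 2.0% and 48.5 ± 0.67%. Ldha held 89.5 ± 0.27% of Ldha and Ldhb in lymph node Treg and 99.7 ± 0.065% and 99.8 ± 0.059% in the tumor groups, where Ldhb, the subunit favoring lactate to pyruvate, was nearly gone. These shares are descriptions, given with no test.

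**Figure D4:**
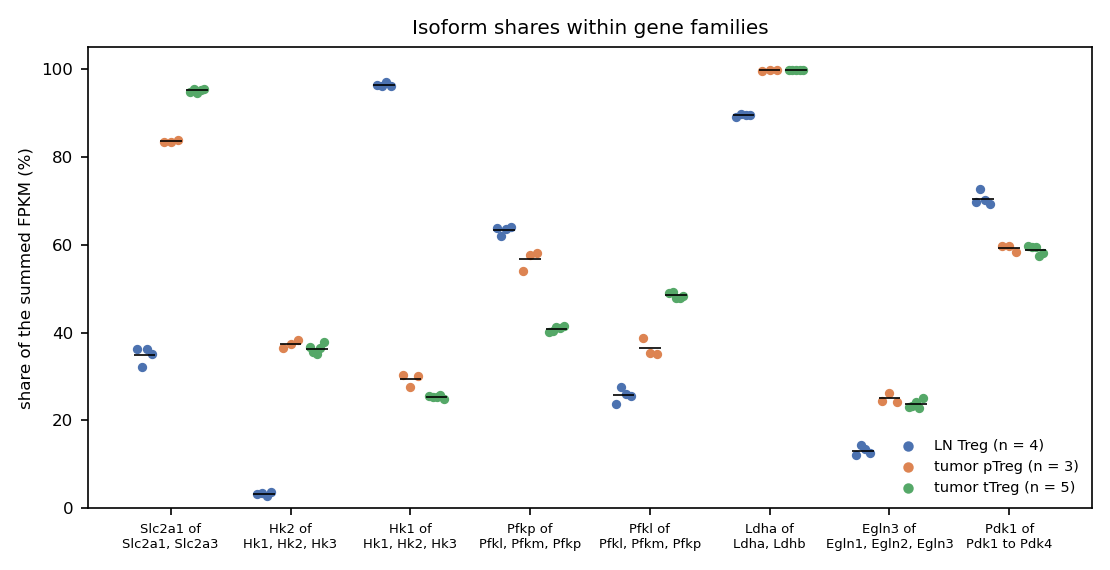
Share of 1 isoform in the summed FPKM of its family, in percent, with 1 point per library and a bar at the group mean. Slc2a1, Hk2, Pfkl, Ldha and Egln3 take a larger share in every tumor library than in any lymph node library, and Hk1, Pfkp and Pdk1 take a smaller one.

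Of the secreted products of the hypoxia response, Vegfa showed the largest rise of all members and Adm was the least abundant in tumor libraries. Vegfa, the growth factor that draws in blood vessels (chr17:46016993-46032369, minus strand), stood at 1.41, 1.37, 1.15 and 1.86 CPM in the lymph node libraries, 165, 165 and 157 in those of tumor pTreg and 189.9, 179.7, 175, 179 and 177 in those of tumor tTreg. Lymph node libraries held 20 to 32 counts each. The rise was 119.5-fold in tumor pTreg (log2 fold change 6.90 ± 0.068, adjusted p = 3.06e-34) and 132-fold in tumor tTreg (7.04 ± 0.064, adjusted p = 1.76e-35). Adm, the vessel-dilating peptide adrenomedullin, was rare, at 0.530, 0.480, 0.520 and 0.755 CPM in the lymph node libraries, 1.10, 1.45 and 1.16 in those of tumor pTreg and 2.57, 2.68, 3.13, 2.85 and 3.09 in those of tumor tTreg. The groups did not overlap, and tumor tTreg was highest. With 7 to 13 counts per lymph node library, its rise of 2.30-fold (log2 fold change 1.20 ± 0.27) in tumor pTreg and 5.28-fold (2.40 ± 0.20) in tumor tTreg had the widest error of the members.

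The oxygen-sensing and oxygen-using enzymes rose too. Egln1, the main prolyl hydroxylase that marks Hif1a, went from 71.3 ± 2.2 CPM to 138 ± 4.3 and 135 ± 3.4 (2.08 and 2.03-fold). Egln3, the strongly inducible hydroxylase of the family, went from 15.4, 18.5, 17.4 and 17.3 CPM to 53.1, 57.1 and 54.0 in tumor pTreg and 51.5, 50.2, 53.0, 48.2 and 54.7 in tumor tTreg (3.44 and 3.23-fold). Its share of the 3 Egln genes by FPKM was 13.1 ± 1.0% in the lymph node libraries, 25.0 ± 1.1% in those of tumor pTreg and 23.7 ± 0.96% in those of tumor tTreg. P4ha1, a collagen prolyl hydroxylase, went from 86.5 ± 0.83 to 209 ± 2.4 and 209.8 ± 3.2 CPM (2.60 and 2.59-fold). Car9, the carbonic anhydrase of hypoxic tumor cells that acidifies their surroundings (chr4:43506966-43513729, plus strand), stood at 0.412, 0.206, 0.173 and 0.291 CPM in the lymph node libraries, 4.07, 4.84 and 4.81 in those of tumor pTreg and 7.99, 8.63, 8.81, 8.76 and 7.84 in those of tumor tTreg. Again tumor tTreg was highest and no groups overlapped. Lymph node libraries held 3 to 7 counts of Car9, and the rise was 17.6-fold (log2 fold change 4.14 ± 0.22, adjusted p = 2.62e-16) in tumor pTreg and 32.2-fold (5.01 ± 0.18, adjusted p = 9.36e-21) in tumor tTreg.

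Of the mitochondrial members Bnip3 rose and Pdk1 fell on the scale of the whole library, while per pan-T count both were higher. Bnip3, which marks mitochondria for removal (chr7:138890836-138909519, minus strand), stood at 6.71, 6.79, 8.20 and 5.64 CPM in the lymph node libraries, 99.1, 98.1 and 98.5 in those of tumor pTreg and 96.3, 102, 84.7, 93.9 and 86.7 in those of tumor tTreg. All tumor libraries lay far above all lymph node libraries, and the tumor groups overlapped. Bnip3 rose 15.5-fold in tumor pTreg (log2 fold change 3.95 ± 0.075) and 14.5-fold in tumor tTreg (3.86 ± 0.070, adjusted p = 3.51e-28). Pdk1, the kinase that inhibits pyruvate dehydrogenase in mitochondria (chr2:71873224-71903858, plus strand), stood at 168, 172, 166 and 167 CPM in the lymph node libraries. It stood at 113, 113 and 109.7 CPM in those of tumor pTreg and at 112, 117, 119.9, 110.1 and 112 in those of tumor tTreg. The tumor groups overlapped and lay below lymph node Treg. Pdk1 was 1.40-fold lower in tumor pTreg (log2 fold change -0.48 ± 0.033) and 1.38-fold lower in tumor tTreg (-0.46 ± 0.028), with adjusted p = 4.86e-14 and 4.12e-15. Per pan-T count Pdk1 was higher by 1.67 ± 0.043 and 5.06 ± 0.042, below the medians of 2.27 and 5.62 over all genes. Among the 4 Pdk genes its share by FPKM was 70.5 ± 1.6% in lymph node Treg and 59.3 ± 0.83% and 58.9 ± 1.0% in the tumor groups.

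Of the lipid, stress and chromatin genes of the response, Hilpda rose most. Hilpda, a lipid droplet protein that blocks fat breakdown, stood at 6.77, 6.66, 9.35 and 7.67 CPM in the lymph node libraries, 74.4, 78.8 and 71.4 in those of tumor pTreg and 70.1, 68.8, 75.5, 68.9 and 64.9 in those of tumor tTreg. The tumor groups overlapped and lay 10.5 and 9.73-fold above lymph node Treg. Ankrd37, a small ankyrin repeat protein, rose from 1.99 ± 0.51 CPM to 12.1 ± 0.23 and 10.5 ± 0.81 (6.48 and 5.58-fold). Ndrg1, a stress-response protein, went from 22.2 ± 1.7 to 90.3 ± 4.7 and 77.7 ± 0.88 CPM, and Mxi1, an antagonist of Myc, from 31.0 ± 1.0 to 117 ± 1.2 and 107 ± 3.6 CPM. Ddit4, an inhibitor of mTORC1, gave a log2 fold change of 0.0040 ± 0.039 in tumor pTreg (adjusted p = 0.92), where its 94.2 ± 3.4 CPM overlapped the 101 ± 4.1 of lymph node Treg, and rose by 0.28 ± 0.033 to 115 ± 4.4 CPM in tumor tTreg. Kdm3a, a histone demethylase induced by hypoxia, was 137 ± 3.0, 157 ± 2.7 and 141 ± 2.2 CPM, and its small calls (log2 fold change 0.30 ± 0.030 and 0.14 ± 0.027) were lost with limma on log2(FPKM + 1), at 0.058 and -0.025.

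Hif1a, the oxygen-regulated subunit itself (chr12:73901375-73947530, plus strand), was the only member called in opposite directions in the tumor groups. It stood at 404, 409.6, 383 and 409.6 CPM in the lymph node libraries, 401, 416 and 418 in those of tumor pTreg and 279.9, 267, 262, 257 and 276 in those of tumor tTreg. The lymph node and tumor pTreg libraries overlapped, and all 5 tumor tTreg libraries lay below both. Against lymph node Treg the log2 fold change was 0.14 ± 0.032 in tumor pTreg (adjusted p = 2.00e-04), which was no longer called with library totals as the only scaling (0.036, adjusted p = 0.30), and -0.48 ± 0.028 in tumor tTreg (adjusted p = 1.43e-15), whereas per pan-T count both were higher (2.29 ± 0.042 and 5.04 ± 0.044). The medians over all genes on that scale were 2.27 and 5.62. Low oxygen regulates Hif1a mainly at the protein, which RNA counts do not show.

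In a second scaling the members were set against T cell RNA, with the summed counts of the 18 pan-T genes in place of the library size. The pan-T list had been chosen after values were seen. On that scale all 32 members were called higher in tumor pTreg than in lymph node Treg, where 91.3% of all genes were, and all 32 in tumor tTreg, where 96.8% were. Median log2 fold changes were 3.87 and 7.27 for the members and 2.27 and 5.62 for all genes. Between the tumor groups all 32 were called lower in tumor pTreg than in tTreg, where 97.1% of genes were, with medians of -3.29 and -3.37. These counts lie near the share over all genes, and with the 4 CD3 genes in place of the 18 they were the same. Which scale matches the level in Treg themselves was not tested.

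Between the tumor groups, the glucose transporter Slc2a3, the phosphofructokinase Pfkp and Hif1a were higher in tumor pTreg on the scale of the whole library, and Adm and Car9 were higher in tumor tTreg. Per pan-T count all 32 members were higher in tumor tTreg, as were 97.1% of all genes. On the first scale 15 members were called higher and 6 lower in tumor pTreg than in tTreg, and 11 were not called, against 26.8% of all genes higher and 25.3% lower. With the size factors of DESeq2 (RLE) in the edgeR test, and with DESeq2 itself, the split was 11 higher and 7 lower, and with limma on log2(FPKM + 1) 9 were higher and 5 lower. Over all genes, RLE factors gave 3572 higher and 4872 lower of 15705. DESeq2 gave 3281 and 4036 of 27279, and limma on log2(FPKM + 1) gave 3216 and 2933 of 27362. The median log2 fold change was 0.077 over the members and -0.0080 over all genes. At 2-fold or more, Slc2a3 alone was higher, against 6.56% of all genes, and Adm alone was lower, against 1.41%. Both counts lie near those shares. Libraries of the tumor groups did not overlap for 19 of the 32 members and for 48.5% of all genes. Of the glycolysis members 9 were higher and 2 lower, and of the hypoxia members 6 were higher and 4 lower. The pan-T sum was 1390.4 CPM in tumor pTreg and 135 in tTreg, the Hepa1-6 sum 5575 and 8177, and the fibroblast sum 144 and 740.1, and their part in these differences was not tested.

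Slc2a3 was 4.18-fold higher in tumor pTreg than in tTreg from tumors (log2 fold change 2.06 ± 0.051, adjusted p = 1.68e-23). The median over the 18 pan-T genes in this comparison was 3.49, and every one of them was higher in tumor pTreg. Pfkp was 1.72-fold higher (0.78 ± 0.029, adjusted p = 4.15e-19), Hif1a 1.54-fold (0.62 ± 0.030, adjusted p = 2.20e-16) and Hk1 1.29-fold (0.36 ± 0.032, adjusted p = 1.30e-10). The other members called higher differed by at most 1.17-fold, the value for Ndrg1, followed in order of size by Ankrd37, Slc16a3, Hk2, Kdm3a, Pgk1, Mxi1, Gpi1, Hilpda, Eno1 and Slc2a1. Of these, Slc2a1, Eno1, Ankrd37 and Hilpda lost the call with RLE factors and with DESeq2, and each also lost it when single libraries were left out.

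In the other direction, Adm was 2.30-fold lower in tumor pTreg (log2 fold change -1.20 ± 0.19, adjusted p = 3.54e-06) and Car9 1.83-fold lower (-0.87 ± 0.11, adjusted p = 5.96e-08). Ddit4 (-0.28 ± 0.036), Pfkm (-0.16 ± 0.058), Vegfa (-0.14 ± 0.031) and Tpi1 (-0.11 ± 0.034) were lower by less. With limma on log2(FPKM + 1) the Vegfa and Pfkm differences were no smaller (-0.21 and -0.18) but not called (adjusted p = 0.094 and 0.058), and both were called once genes below a mean FPKM of 1 were left out. The Pfkm call was lost without tumor pTreg replicate 3 or tumor tTreg replicate 1, and the Tpi1 call without tumor pTreg replicate 2. Among the 11 members not called, Aldoa gave 0.0074 ± 0.030, Gapdh -0.022 ± 0.035, Ldha -0.00056 ± 0.030, Pkm 0.057 ± 0.029, Pgam1 -0.055 ± 0.025, Pdk1 -0.023 ± 0.032 and Bnip3 0.095 ± 0.047 on the log2 scale. A p that misses the threshold does not show that these levels are alike, and with errors this small a difference of a few percent is what the test can reach.

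**Figure D5:**
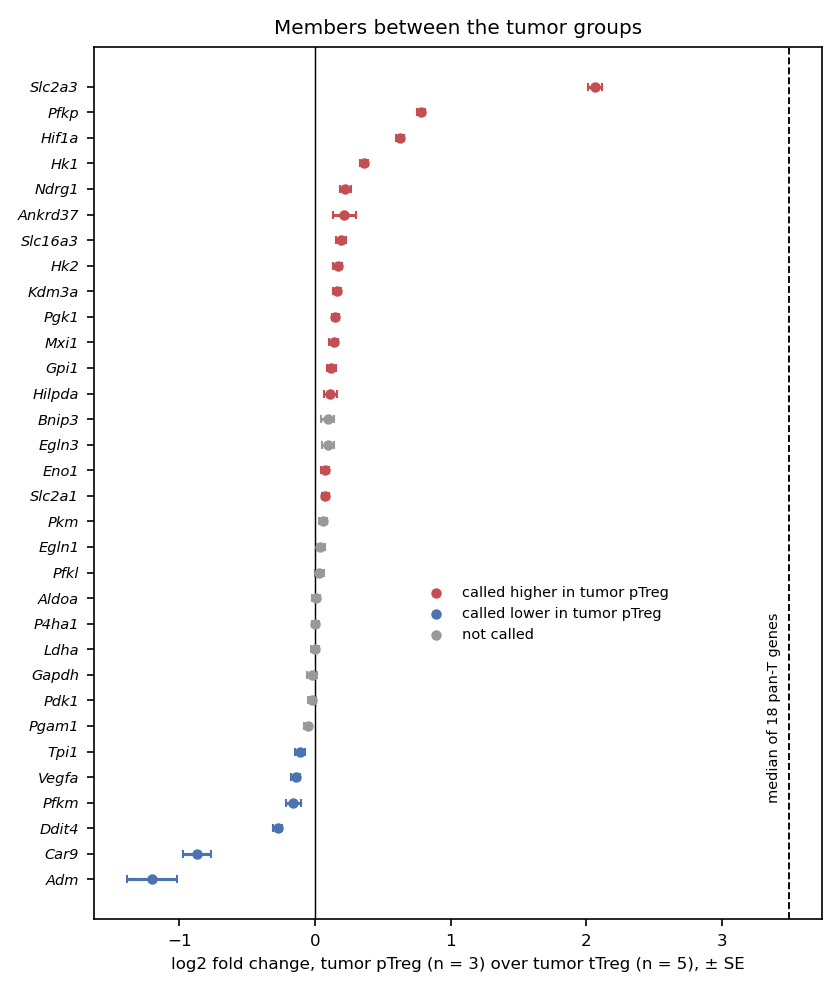
Log2 fold change of tumor pTreg over tumor tTreg for each member with its SE, on the scale of the whole library, red where called higher, blue where called lower and gray where not called; the dashed line marks the median of the 18 pan-T genes at 3.49. Slc2a3 at 2.06 and Adm at -1.20 are the ends, and most members sit near 0. Per pan-T count all 32 members are lower in tumor pTreg, as are 97.1% of all genes.

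Other genes of the pathway, from lists taken from general knowledge, were read in the same fit. For each of the 3 lists below, the shares over all genes are those given above, 47.6% higher and 39.8% lower in tumor pTreg than in lymph node Treg, 48.1 and 42.3% in tumor tTreg, and 26.8 and 25.3% between the tumor groups, and the medians over all genes are 0.12, 0.10 and -0.0080. Of 20 other glycolysis isoforms and regulators 16 could be tested, and 12 were higher and 4 lower than lymph node Treg in each tumor group (median log2 fold change 1.44 and 1.49). Hk3, the myeloid hexokinase, rose from 0.302 CPM to 101 in tumor pTreg and 112 in tTreg (351 and 388-fold). Slc16a7, the monocarboxylate transporter MCT2, rose from 0.602 to 19.6 and 19.7 CPM. On the scale of the whole library Ldhb fell from 38.1 to 2.05 and 1.48 CPM (17.2-fold lower in tumor pTreg). The pan-T sum fell as well, from 6653 CPM to 1390 and 135. In tumor pTreg 3 were higher than in tumor tTreg, Pfkfb4, a regulator of phosphofructokinase, among them (17.8 against 15.7 CPM), and 4 were lower, with Eno3, the muscle enolase (60.6 against 80.7), and Hk3 (101 against 112) named. Between lymph node and tumor libraries macrophage genes rose with Hk3, as given above, and their part in it was not tested.

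Of 11 other genes of the HIF pathway 8 were higher and 3 lower than lymph node Treg in each tumor group (median 0.20 and 0.29). Epas1, which encodes HIF-2 alpha, stood at 4.22 CPM in the lymph node libraries, 39.6 in those of tumor pTreg and 14.5 in those of tumor tTreg, 10.1 and 3.66-fold higher, and 2.75-fold higher in tumor pTreg than in tTreg from tumors (log2 fold change 1.46 ± 0.056, adjusted p = 9.30e-19). Arnt2, a relative of the partner subunit Arnt, rose from 8.92 to 93.8 and 95.1 CPM. Vhl, the ubiquitin ligase subunit that destroys hydroxylated Hif1a, rose from 22.7 to 38.5 and 39.4 CPM. Against tumor tTreg 3 were higher and 1 lower in tumor pTreg. Cul2, the scaffold that works with Vhl, was 41.1 against 36.7 CPM, and Arnt was 103 against 109.7 CPM.

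Of 35 other hypoxia response genes 33 could be tested. In tumor pTreg 24 were higher and 6 lower than lymph node Treg, and in tumor tTreg 23 were higher and 8 lower (median 1.39 and 1.29). Loxl2, a collagen cross-linking enzyme, rose from 0.148 to 55.3 and 77.8 CPM. Nos2, the inducible nitric oxide synthase of macrophages, had 2 counts over the 4 lymph node libraries and 12.2 and 10.3 CPM in the tumor groups, a ratio of 404 with a 95% counting interval of 111 to 3344 in tumor pTreg and 342 (94.4 to 2827) in tumor tTreg. Of the list 13 were higher and 10 lower in tumor pTreg than in tTreg. Bhlhe40, a transcriptional repressor active in T cells, was 1062 against 675 CPM (1.58-fold), Cxcr4, a chemokine receptor, 107 against 68.5 (1.57-fold), and Loxl2 55.3 against 77.8 (1.40-fold lower). Per pan-T count 97.1% of all genes were called lower in tumor pTreg than in tTreg. The fibroblast genes moved with Loxl2.

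Some member counts could share reads with other genes, which the sources used here do not settle. Pgam1-ps2, a processed copy of Pgam1, held 271, 1259 and 2555 counts over the 3 groups, against 4494, 22908 and 40338 for Pgam1. Pgk1-rs7 held 600 counts over tumor tTreg and 0 elsewhere, against 50766 for Pgk1, and Eno1b held 235, 337 and 550 against 29680, 43355 and 69663 for Eno1. In GENCODE vM21, exons of Slc2a1, Gpi1, Pfkp, Pfkm, Aldoa, Tpi1, Gapdh, Bnip3, Ndrg1, Ankrd37, Mxi1, Hif1a and Car9 overlap those of a gene on the other strand, as do those of Hk1, and exons of Pfkm, Pkm and Hif1a overlap a gene on their own strand. Whether counting used strand is not stated in the labels. The symbol Aldoa also stands for 2 annotated genes next to each other, so its counts, its FPKM and its place among the promoter windows printed are uncertain in that respect.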

How the data were processed

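RNA from 12 libraries was measured by bulk sequencing. Per the submitters' processing notes, STAR 2.7.11a, RSEM 1.3.3, DESeq2 and GRCm38 (mm10) were named, without their roles. The authors deposited a table of counts per gene, read here as RSEM expected counts because that tool is named, and a table of FPKM values (fragments scaled to transcript length and library total), normalized by the authors. The gene annotation and the use of strand in counting are not given in the sources used here.

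The expected counts, whole in the file, were taken as deposited. Genes were kept by filterByExpr of edgeR by group, and 15705 of 27279 genes with a count were tested. The main test was the quasi-likelihood F test of edgeR 4.0.16 in R 4.3.3 with TMM factors, fitted once over the 12 libraries with a term for group. P-values were adjusted by Benjamini-Hochberg over all genes of a comparison and called below 0.05. The second scale set library sizes to the summed counts of the 18 pan-T genes. CPM uses library totals. Fitted log2 fold changes include TMM factors and so can differ from ratios of CPM. A gene without lymph node counts was set to 3 counts over the group as its floor, and a gene with 1 to 3 counts was given a ratio with an exact 95% binomial interval, which covers counting error only. Isoform shares use FPKM within a library. The test was also run on simulated counts. Far fewer genes changed there than were called here, so that run does not show how the test behaves under such broad shifts.

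Groups followed the sample titles. The members, the gene lists, the scalings and the rules were chosen with earlier results of these data known, and the pan-T list had been chosen after values were seen. Every member is named, and from each other pathway list the 3 called genes with the largest log2 fold change in each comparison whose higher group mean reached 10 CPM. One gene that this rule names is not reported here. From each marker list the 2 most abundant genes qualified, and some further markers were named to describe the libraries. Alternatives were RLE factors, library totals, no filter, a mean of at least 5 CPM, DESeq2 1.42.0, limma 3.58.1 on log2(FPKM + 1), also filtered at a mean FPKM of 1, and on log2(FPKM + 0.1), a replicate block, fits of the compared groups only, the 4 CD3 genes as T cell scale, and each library left out in turn. Promoter windows came from RefSeq and gene positions from GENCODE vM21, both on GRCm38.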

Additional observations from a re-analysis of the deposited data

Results flagged for a closer look

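Kdm3a stood at 145 CPM in tumor tTreg replicate 4 and at 139.8 to 140.4 CPM in the other 4 tumor tTreg libraries, a gap that passed Dixon's test. It was 1 of 64 groups of libraries tested over the members, and chance alone flags about 1 in 20.

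Hif1a was called in opposite directions in the tumor groups against lymph node Treg, higher in tumor pTreg (log2 fold change 0.14 ± 0.032) and lower in tumor tTreg (-0.48 ± 0.028), and the difference between the tumor groups was 0.62 ± 0.030 (edgeR adjusted p = 2.20e-16). The rise in tumor pTreg was not called with library totals alone. Per pan-T count Hif1a was higher in both tumor groups and higher in tumor tTreg, as were most genes on that scale.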

How the results depend on the processing

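The counts of members against lymph node Treg moved little. Over the alternatives, 26 to 28 members rose and 3 to 4 fell in tumor pTreg, and 25 to 27 rose and 4 to 5 fell in tumor tTreg, and all counts per pan-T count were the same with the CD3 genes. Of all genes called on the scale of the whole library, 50.1 to 56.4% were higher in tumor pTreg and 50.1 to 55.4% in tumor tTreg. Between the tumor groups 7 to 16 members were higher and 4 to 7 lower, with 9 higher on log2(FPKM + 1) and 7 on log2(FPKM + 0.1). There the higher share of all genes called ran from 42.3% with RLE factors to 57.3% on log2(FPKM + 0.1). The count at least 2-fold lower in tumor pTreg than in lymph node Treg went from 0 to 1 with RLE factors, library totals, a mean of at least 5 CPM, DESeq2, log2(FPKM + 0.1) and the replicate block, and was 0 to 1 as libraries were left out. In each case the gene was Slc2a3, and without lymph node Treg replicate 3 or 4 or tumor pTreg replicate 2 it passed the limit. Between the tumor groups the count at least 2-fold lower in tumor pTreg went from 1 to 0 under the 5 CPM filter, which removes Adm. Library totals alone shifted the median of all genes for tumor pTreg against lymph node Treg by -0.10, and the FPKM scales by -0.12. Signs turned for 8 genes and 2 shares. Ddit4 in tumor pTreg against lymph node Treg gave -0.021 with RLE factors, -0.10 with library totals, -0.042 with the 5 CPM filter, -0.018 with DESeq2, -0.10 on log2(FPKM + 1) with and without a filter at a mean FPKM of 1, -0.10 on log2(FPKM + 0.1), -0.0087 in a fit of the compared groups and -0.030 to 0.035 as libraries were left out. Pfkp in tumor tTreg against lymph node Treg gave 0.015 and 0.016 with RLE factors and DESeq2, and -0.022 to 0.0054 with libraries left out. Kdm3a in that comparison gave -0.025 on log2(FPKM + 1) with and without the filter and -0.026 on log2(FPKM + 0.1). Between the tumor groups, RLE factors and DESeq2 gave -0.012 and -0.012 for Pfkl, -0.037 and -0.036 for Aldoa, -0.0047 and -0.0041 for Egln1 and -0.043 and -0.042 for P4ha1. P4ha1 also gave -0.0055 with library totals, -0.012 on log2(FPKM + 1) with and without the filter and -0.012 on log2(FPKM + 0.1). Ldha gave 0.0030 without a filter and 0.00087 in a fit of the compared groups. With libraries left out, the ranges were -0.0095 to 0.022 for Aldoa, -0.0092 to 0.0093 for P4ha1 and -0.019 to 0.018 for Ldha. The Pfkm share in tumor tTreg less that in lymph node Treg was -0.41 to 0.24 percentage points over libraries left out, turning without lymph node Treg replicate 1, and the Egln1 share in tumor pTreg less that in tumor tTreg was -0.057 to 1.39, turning without tumor pTreg replicate 1. The cause was not tested. Leaving out 1 library changed no call of a member against lymph node Treg, but between the tumor groups Slc2a1 was not called without tumor pTreg replicate 1 (0.073) or 2 (0.059) or tumor tTreg replicate 5 (0.069), and Eno1 was not called without tumor pTreg replicate 1 (0.066) or 2 (0.084) or 3 (0.084) or tumor tTreg replicate 1 (0.061) or 5 (0.075). Likewise Ankrd37 was not called without tumor pTreg replicate 1 (0.23) or 2 (0.22) or 3 (0.20) or tumor tTreg replicate 1 (0.21) or 2 (0.18) or 4 (0.21), Hilpda was not called without lymph node Treg replicate 4 (0.11) or tumor pTreg replicate 1 (0.12) or 2 (0.079) or tumor tTreg replicate 1 (0.11) or 2 (0.11) or 4 (0.11) or 5 (0.088), Tpi1 was not called without tumor pTreg replicate 2 (-0.091) and Pfkm was not called without tumor pTreg replicate 3 (-0.12) or tumor tTreg replicate 1 (-0.13). Bnip3 was called without tumor tTreg replicate 2 (0.13) and Egln3 was called without tumor tTreg replicate 5 (0.12). Correlations of the deviations of same-numbered libraries were -0.019 to 0.015. Libraries may be pools or technical repeats, so these values cannot show whether same-numbered libraries shared animals. With the replicate block, 28 members rose and 3 fell in tumor pTreg against lymph node Treg, 27 and 4 in tumor tTreg, and 12 and 6 between the tumor groups, and Aldoa and Ldha gave -0.0063 and 0.00067 between them. Depth limits Adm and Car9, with 7 to 13 and 3 to 7 counts per lymph node library.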

Other observations

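Pyruvate entry into mitochondria and the pentose phosphate branch, which makes NADPH and ribose from glucose, were read from 17 further genes. On the scale of the whole library 14 were higher and 2 lower than lymph node Treg in tumor pTreg and 15 were higher and 2 lower in tumor tTreg, with a median log2 fold change of 0.41 and 0.44, against 0.12 and 0.10 over all genes. The shares over all genes are 47.6% higher and 39.8% lower in tumor pTreg, 48.1 and 42.3% in tTreg, with 26.8 and 25.3% between the tumor groups. Pgd, a pentose phosphate dehydrogenase, rose from 73.4 CPM to 194 and 205, and G6pdx, the enzyme that opens the branch, from 38.4 to 91.4 and 106. Pdk4, a relative of Pdk1 that responds to fasting and fatty acids, had no counts in lymph node Treg and 26.3 and 37.0 CPM in the tumor groups. Against a floor of 3 counts over the lymph node group it was at least 579.9-fold higher in tumor pTreg and at least 815-fold higher in tumor tTreg. In tumor pTreg 2 of the 17 were higher and 9 lower than in tTreg, and per pan-T count 97.1% of all genes were called lower in tumor pTreg. Pdk3 was 21.9 against 16.4 CPM, Rpia, a ribose isomerase, 20.4 against 17.3, and Pdk4 26.3 against 37.0.

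Of 15 genes of gluconeogenesis and glycogen 10 could be tested, and 8 were higher in each tumor group than in lymph node Treg, with 1 lower in tumor pTreg and 2 in tumor tTreg (median log2 fold change 0.88 and 1.00). The medians of both lists were the same with genes without lymph node counts set to their bound. Pygl, the liver glycogen phosphorylase, rose from 0.858 CPM to 20 and 20, Pcx, pyruvate carboxylase, from 3.39 to 17.5 and 19, and Gys1, glycogen synthase, from 13.8 to 38.5 CPM in tumor pTreg. Ppp1r3c, a glycogen-targeting subunit of protein phosphatase, had no counts in lymph node Treg and was at least 195-fold higher in tumor pTreg and at least 262-fold higher in tumor tTreg against the same floor. Between the tumor groups Pck2, the mitochondrial enzyme of gluconeogenesis, was 47.4 CPM in tumor pTreg and 63.1 in tTreg, and Gbe1, the glycogen branching enzyme, 15.5 and 13.6. Hepatocyte genes moved with this list, at the sums given in the report, and their part in it was not tested.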
